A study of Homo sapiens with 6 samples.

Results

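The transcripts of YAP1, WWTR1, TEAD1, TEAD2, TEAD3, TEAD4 and VGLL4, the core factors through which the Hippo pathway reaches its target genes, were followed in HCT116 cells that overexpressed SETD8 and in cells with an empty vector. These 7 genes were chosen by name, as the coactivators, their DNA-binding partners and a competitor, and each was found by its Ensembl ID among the 58735 genes of the count table. HCT116 is an established human colon carcinoma line of epithelial origin. SETD8 is a lysine methyltransferase best known for placing a single methyl group on histone H4, and its gene now has the symbol KMT5A.

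The SETD8 group held 3 libraries and the Vector group 3 libraries. Both groups were HCT116 cells grown in DMEM with serum and antibiotics, and both had been transduced with lentivirus and selected with puromycin as stable clones, per the labels' protocols, with the SETD8 overexpression plasmid in the SETD8 group and the empty vector in the other. The design text speaks of transfection instead. The labels do not say whether the 3 libraries of a group came from separate clones or cultures, and the p-values below therefore cover no more than the spread among these libraries, part or all of which may be technical. Messenger RNA was selected by its poly(A) tail and libraries were made with a kit that marks strand. The title of the series names methylation of the YAP protein and its degradation, and the comparison of transcripts asks which messengers differed between the groups.

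YAP (gene YAP1) and TAZ (gene WWTR1) are paralogous coactivators that carry no DNA-binding domain of their own. When the Hippo kinases are inactive, they enter the nucleus and bind TEAD proteins, which recognise DNA through a TEA domain, and together they switch on genes of growth, adhesion and matrix. VGLL4 binds TEAD proteins through its Tondu domains at a surface that overlaps the YAP site, and so competes with YAP. In intestinal epithelium YAP and TAZ are known for their part in regeneration and in tumour growth. Much of their control acts on the proteins, by phosphorylation, retention in the cytoplasm and degradation, and message levels do not show it.

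The site in the series' title is lysine 76 of YAP (K76), and the coding bases around it are shown because the modification concerns this stretch and because they show how far it is shared with the paralog. The lines below give codons 66 to 86 of YAP1 (chr11:102111044-102111106, plus strand, GRCh38) and the best matching codons 29 to 49 of WWTR1 (chr3:149657160-149657222, minus strand, GRCh38), both from GENCODE 29 transcripts, 5′ to 3′, with the lysine codon in capitals.
YAP1: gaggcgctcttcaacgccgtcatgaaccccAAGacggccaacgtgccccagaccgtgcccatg
WWTR1: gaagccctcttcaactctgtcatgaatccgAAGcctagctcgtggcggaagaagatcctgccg
The windows were identical at 37 of 63 bases and at 10 of 21 encoded positions, and codon 39 of WWTR1 stood opposite codon 76 of YAP1 with the same bases, AAG. The YAP1 window was present in 7 of the 8 YAP1 transcripts with a whole coding sequence. Counts per gene sum over transcripts, so the values below say nothing of single isoforms or of the methylated site.

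The libraries held 17056672 to 18785454 counted reads in the SETD8 group and 17187722 to 20471843 in the Vector group. Levels are given as CPM, counts normalised for library size with TMM factors, and 3 reads stood at 0.15 to 0.17 CPM, a floor that covers counting error only. KMT5A averaged 69.0 ± 5.63 CPM in SETD8 libraries and 49.1 ± 4.27 CPM in Vector libraries (SD, n = 3 each; 1.41-fold, edgeR adjusted p = 0.0156), a call that was lost without Vector replicate 2 and without any 1 SETD8 library (edgeR adjusted p = 0.0579 to 0.0965). The Vector libraries differed more among themselves than the SETD8 libraries did. Principal component 1 of log2 CPM held 46.4% of the variance, and on it the SETD8 libraries lay between -23.8 and -16.5, while Vector replicates 1, 2 and 3 stood at -0.94, 25.7 and 39.3. Among the epithelial markers, 9 of 12 were tested, 1 fell and 1 rose. KRT8, KRT19 and EPCAM averaged 6304, 3457 and 262 CPM in SETD8 libraries and 6697, 3124 and 261 CPM in Vector libraries, while CDX1 had no reads and VIL1 and CEACAM5 had at most 4 in any library. CDH1, which encodes E-cadherin, averaged 80.7 CPM in SETD8 libraries and 117 CPM in Vector libraries (edgeR adjusted p = 0.0218), and CLDN4, a claudin gene, 366 CPM in SETD8 libraries and 267 CPM in Vector libraries (edgeR adjusted p = 0.0156). Among fits without 1 library, CDH1 kept its call only without Vector replicate 1, and CLDN4 only without Vector replicates 1 and 3. The part of these markers in the results below was not tested. The 8 fibroblast markers summed to 3.50 to 4.83 CPM in SETD8 libraries and 4.80 to 7.20 CPM in Vector libraries, and the 5 endothelial and 6 immune markers to at most 2.54 CPM in any library. DCN, PDGFRA, FAP, KDR, PTPRC and CD3E had no reads.

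Of the 7 core genes, WWTR1 alone passed the test, and it was lower in the SETD8 libraries. The test was edgeR's robust quasi-likelihood test over all genes, with Benjamini-Hochberg adjustment and a threshold of 0.05. All 7 genes passed the low-count filter, with 289 to 2405 reads in every library. With SETD8, 1 core gene fell and 0 rose, against 4.75% lower and 3.08% higher (7.83% in all) of the 14370 genes tested, so 1 call among 7 genes says little about the set. At an unadjusted p under 0.05 the counts were also 1 and 0, while 26% of all genes lay under that p, 13.8% as lower and 12.3% as higher. The lower genes made up 60.6% of all calls, but 38.9% when libraries were scaled by their totals alone. The median log2 fold change, SETD8 over Vector, was 0.03 over the 7 genes and 0.00047 over all genes. The groups did not overlap in 1 of the 7 core genes and in 30.3% of all tested genes.

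**Figure D1:**
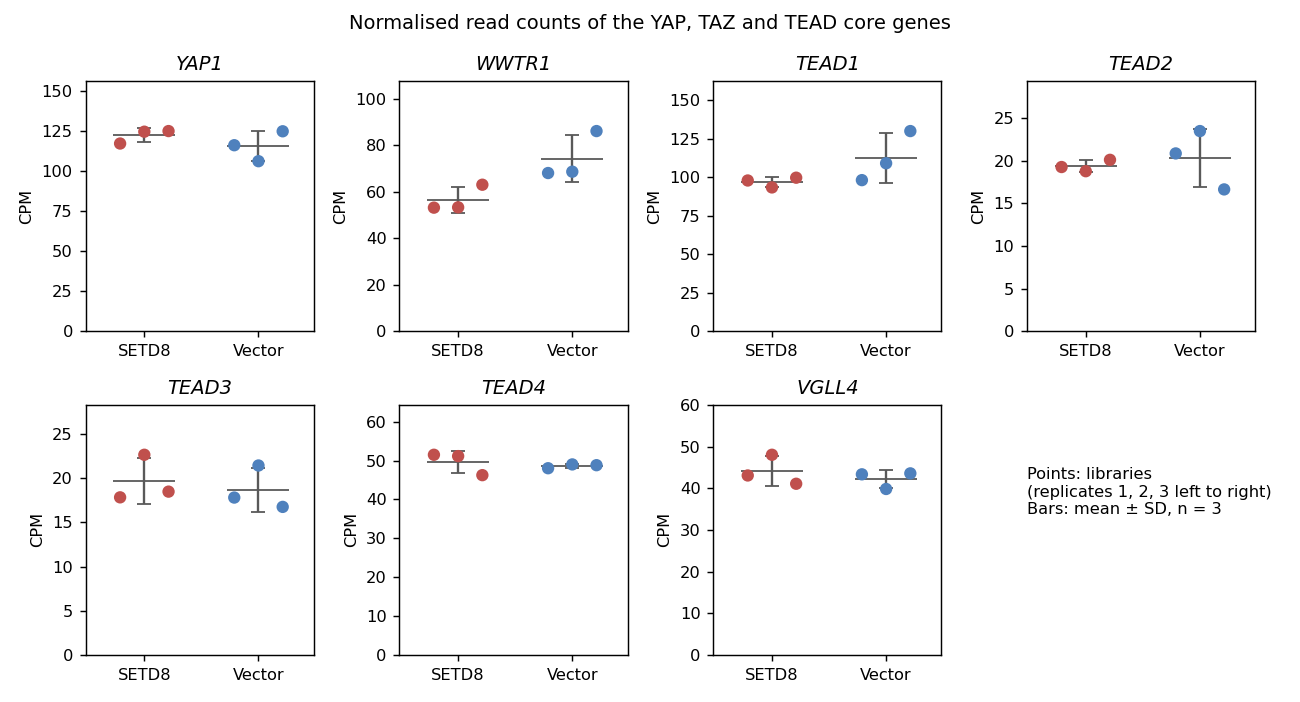
Each panel plots 1 gene, with CPM on the vertical axis from 0 and the 3 SETD8 libraries left of the 3 Vector libraries; points are libraries and bars are mean ± SD. Only the WWTR1 panel has groups that do not overlap, with the SETD8 libraries at 53.2 to 63.1 CPM and the Vector libraries at 68.1 to 86.1 CPM.

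YAP1, the coactivator that the title concerns, did not pass. It lies on chromosome 11 from 102110461 to 102233423 (ENSG00000137693, plus strand; here and below GRCh38, with GENCODE 29 annotation). SETD8 replicates 1, 2 and 3 had 117, 124 and 125 CPM, and Vector replicates 1, 2 and 3 had 116, 106 and 125 CPM. The groups overlapped, with Vector replicate 2 the lowest of the 6 and Vector replicate 3 level with the highest SETD8 library. Its log2 fold change of 0.08 had an SE of 0.09 and an edgeR adjusted p of 0.6003. The 95% interval ran from -0.11 to 0.27, a fold of 0.927 to 1.204, so a difference inside that range is not excluded. The value was 0.030 without Vector replicate 2, 0.14 without Vector replicate 3, 0.12 with library totals and 0.16 with length correction, and it passed under none of the 16 alternatives. In bulk RNA, fewer cells with a transcript and less of it per cell cannot be told apart, here and for the other genes.

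WWTR1, which encodes TAZ, fell with SETD8 and was the 1 core gene whose groups did not overlap. It lies on chromosome 3 from 149517235 to 149736714 (ENSG00000018408, minus strand). SETD8 replicates 1, 2 and 3 had 53.2, 53.3 and 63.1 CPM, and Vector replicates 1, 2 and 3 had 68.1, 68.7 and 86.1 CPM. Every SETD8 library lay below every Vector library, by at least 5.03 CPM, and the third library was the highest in each group. The means were 56.5 ± 5.66 CPM in SETD8 libraries and 74.3 ± 10.3 CPM in Vector libraries (SD, n = 3 each). The difference was -0.39 on the log2 scale (SE 0.11), with a 95% interval of -0.64 to -0.15 and an edgeR adjusted p of 0.0497, a fold of 0.761.

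The WWTR1 call lay at the edge of the threshold, at rank 1118 of the 1125 genes called. It passed under 8 of 10 other settings and was lost with library totals (log2 fold change -0.36, edgeR adjusted p = 0.0704) and limma-voom (-0.39, limma adjusted p = 0.0549). With 1 library left out it passed only without Vector replicate 1 (-0.46, edgeR adjusted p = 0.00405), a fit in which 11.8% of all genes were called lower and 12% higher. It was lost without Vector replicates 2 and 3 (edgeR adjusted p = 0.128 and 0.0820) and without SETD8 replicates 1, 2 and 3 (0.199, 0.177 and 0.0941). The direction was the same in all 16 alternatives, at -0.48 to -0.27. Since the groups did not overlap, leaving out 1 library could hardly have reversed it. Correction for transcript length left WWTR1 at -0.33 (edgeR adjusted p = 0.0428).

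**Figure D2:**
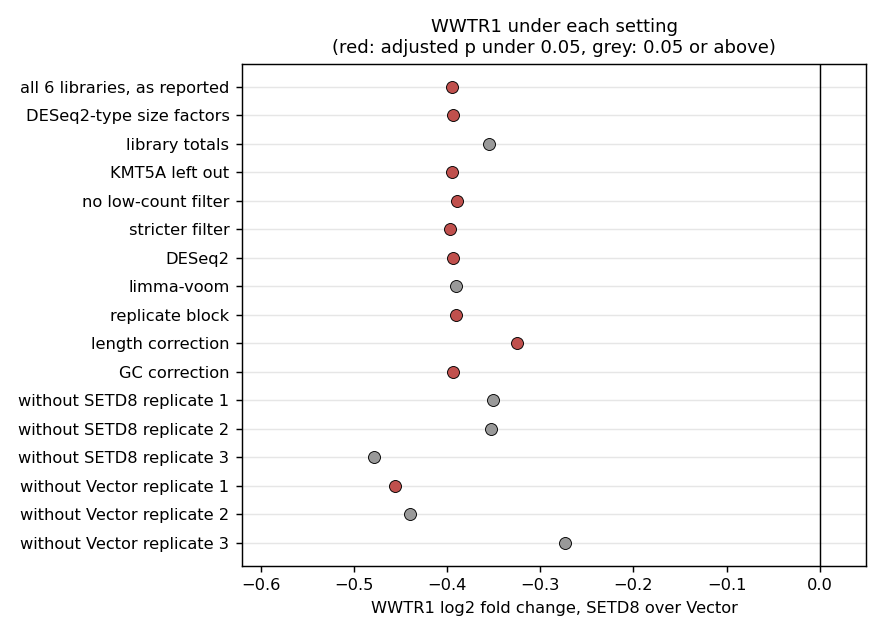
The WWTR1 log2 fold change (horizontal axis, SETD8 over Vector) is plotted for the reported fit and each alternative (rows), red where the adjusted p was under 0.05 and grey otherwise. All points lie between -0.48 and -0.27, and 5 of the 6 fits without 1 library are grey.

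The balance between the paralogs was compared directly, since a call in WWTR1 and none in YAP1 does not show that they differ. The log2 ratio of WWTR1 to YAP1 counts within a library does not depend on how libraries are scaled. It was -1.14, -1.22 and -0.99 in SETD8 replicates 1, 2 and 3, and -0.77, -0.63 and -0.53 in Vector replicates 1, 2 and 3. The ratio was lower in each SETD8 library than in any Vector library. The means were -1.12 ± 0.12 and -0.64 ± 0.12 (SD, n = 3 each), a difference of -0.47, or 0.721-fold. The two-sided exact permutation p was 0.1, the smallest that 3 against 3 libraries allow. Leaving out 1 library gave differences of -0.54 to -0.42.

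Per kilobase of exon, WWTR1 stood at 0.340, 0.321 and 0.378 of YAP1 in SETD8 replicates 1, 2 and 3, and at 0.439, 0.484 and 0.517 in Vector replicates 1, 2 and 3. YAP1 was therefore the more abundant coactivator message per length in each of the 6 libraries. The summed level of both was 24.9, 26.1 and 27.3 CPM per kilobase in SETD8 libraries and 26.5, 25.0 and 30.1 in Vector libraries. These sums overlapped, unlike the ratio.

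**Figure D3:**
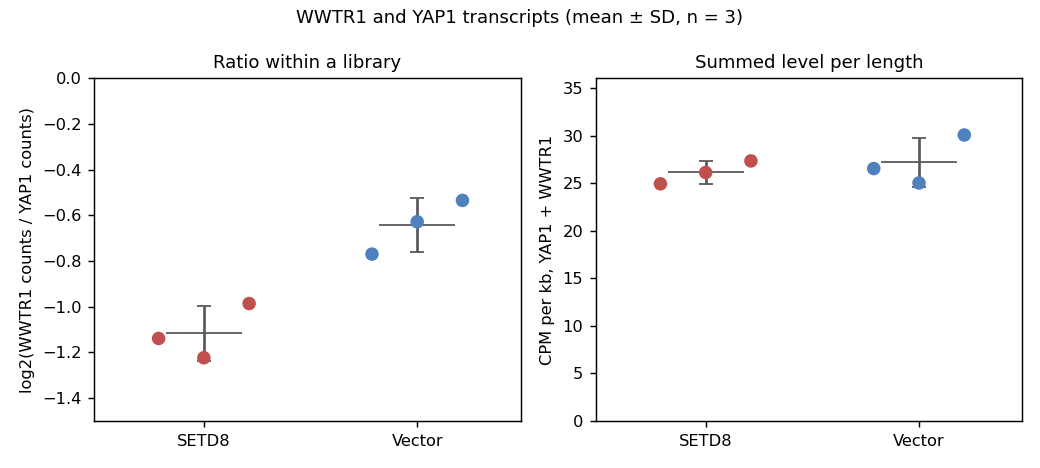
The left panel plots the log2 ratio of WWTR1 to YAP1 counts per library and the right panel the sum of both genes in CPM per kilobase, with SETD8 libraries left of Vector libraries and bars for mean ± SD. The ratios are separate, at -1.22 to -0.99 with SETD8 and -0.77 to -0.53 with the vector, while the sums overlap.

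The TEAD genes encode the DNA-binding partners, and none of the 4 passed the test with all libraries. TEAD1 (ENSG00000187079, chromosome 11 from 12674591 to 12944483, plus strand) had 97.9, 93.4 and 99.8 CPM in SETD8 replicates 1, 2 and 3, and 98.2, 109 and 130 CPM in Vector replicates 1, 2 and 3. Vector replicate 1 lay within the SETD8 range, and the other two Vector libraries lay above it. The log2 difference of -0.21 (SE 0.10) had a 95% interval of -0.43 to 0.01 and an edgeR adjusted p of 0.212. Without Vector replicate 1 it was -0.30 and passed (edgeR adjusted p = 0.0216), in a fit that called 11.8% of all genes lower and 12% higher. The TEAD1 difference was -0.09 without Vector replicate 3 (edgeR adjusted p = 0.555) and -0.06 with length correction (0.695). TEAD1 has the longest exons of the 7 genes, 10279 bases in union.

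TEAD4 (ENSG00000197905, chromosome 12 from 2959330 to 3040673, plus strand) was the steadiest of the family in the vector cells. SETD8 replicates 1, 2 and 3 had 51.5, 51.1 and 46.2 CPM, and Vector replicates 1, 2 and 3 had 48.0, 49.0 and 48.8 CPM. The 3 Vector values lay inside the SETD8 range. Its log2 fold change was 0.03 (95% interval -0.17 to 0.23, edgeR adjusted p = 0.868), and with length correction -0.12 (edgeR adjusted p = 0.441).

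TEAD2 (ENSG00000074219, chromosome 19 from 49340595 to 49362457, minus strand) had 19.3, 18.8 and 20.1 CPM in SETD8 replicates 1, 2 and 3, and 20.9, 23.5 and 16.7 CPM in Vector replicates 1, 2 and 3. The SETD8 libraries lay within the Vector range. The log2 fold change was -0.07 (95% interval -0.36 to 0.22, edgeR adjusted p = 0.779), and 0.06 without Vector replicate 2. TEAD3 (ENSG00000007866, chromosome 6 from 35473597 to 35497076, minus strand) had 17.9, 22.7 and 18.5 CPM in SETD8 replicates 1, 2 and 3, and 17.8, 21.5 and 16.8 CPM in Vector replicates 1, 2 and 3. The second library was the highest in each group. The log2 fold change was 0.07 (95% interval -0.23 to 0.37, edgeR adjusted p = 0.775), and -0.04 without SETD8 replicate 2.

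**Figure D4:**
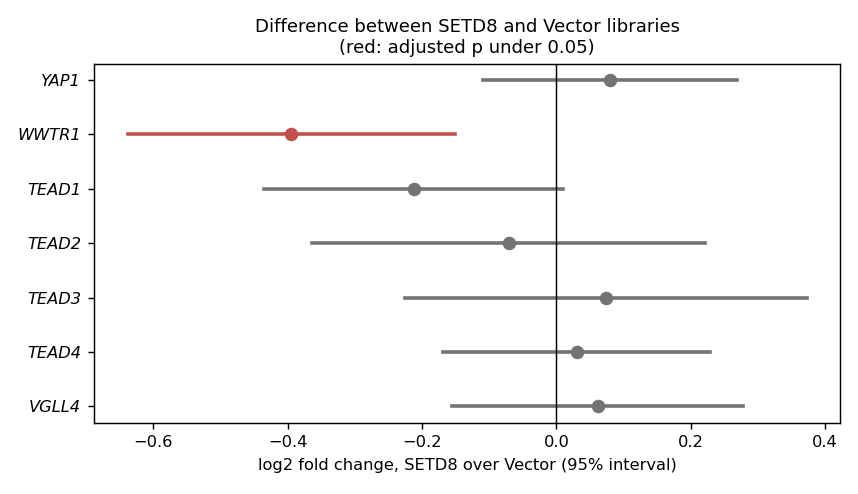
Points give the log2 fold change of each gene, SETD8 over Vector, and lines its 95% interval (horizontal axis); rows are genes. The WWTR1 interval, -0.64 to -0.15, lies below 0, and the other 6 intervals include it.

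Reads from the TEAD paralogs can be told apart along nearly all of their length. TEAD1 and TEAD2 shared no stretch of 50 bases with another TEAD gene, and TEAD3 and TEAD4 shared 7 such stretches, which form a single run of 56 bases. The run is shown because a read inside it could come from either gene. It lies in the coding sequence across a splice junction, between 35475150 and 35475383 on chromosome 6 (minus strand) for TEAD3 and between 3040212 and 3040372 on chromosome 12 (plus strand) for TEAD4.
TEAD3 and TEAD4: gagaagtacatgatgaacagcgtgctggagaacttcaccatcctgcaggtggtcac
The shared stretches were 0.227% of the 50-base stretches of TEAD3 transcripts and 0.280% of those of TEAD4 transcripts. TEAD2 shares 319 exon bases with CD37, which lies on the opposite strand and had 58 to 61 reads in SETD8 libraries and 59 to 84 in Vector libraries. Whether reads were counted by strand is not stated in the labels or the file, so reads from that overlap are uncertain.

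TEAD4 was the main TEAD message per length. Of the summed TEAD level in CPM per kilobase of exon, TEAD4 took 50.9%, 49.6% and 47.5% in SETD8 replicates 1, 2 and 3, and 48.5%, 45.8% and 47.5% in Vector replicates 1, 2 and 3. TEAD1 took 20.04% to 22.6% in SETD8 libraries and 21.9% to 28.0% in Vector libraries. TEAD2 took 13.9% to 15.7% in SETD8 libraries and 12.4% to 16.7% in Vector libraries. TEAD3 took 13.2% to 16.4% in SETD8 libraries and 12.2% to 14.95% in Vector libraries. The ranges of the groups overlapped for all 4 genes. The summed TEAD level was 42.9 to 45.3 CPM per kilobase in SETD8 libraries and 43.5 to 47.1 in Vector libraries. It was 1.57 to 1.79 times the summed level of YAP1 and WWTR1 in SETD8 libraries and 1.505 to 1.88 times in Vector libraries.

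**Figure D5:**
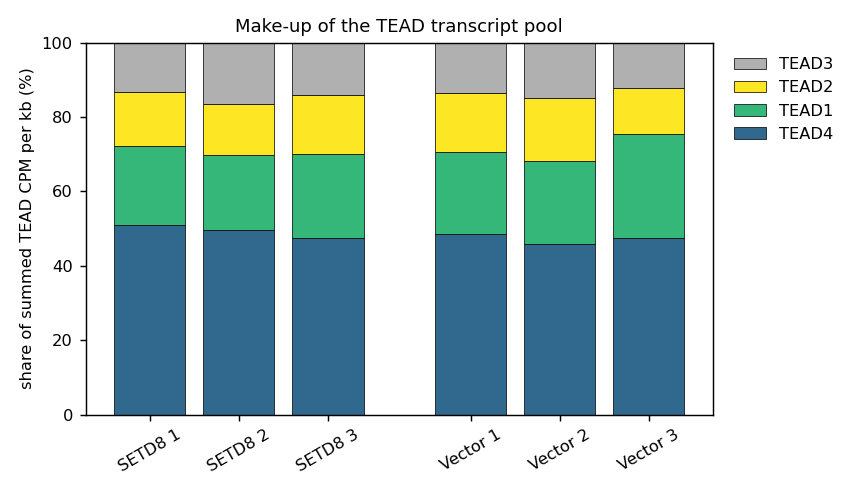
Each bar is 1 library and its segments are the shares of TEAD4, TEAD1, TEAD2 and TEAD3 in the summed TEAD CPM per kilobase (vertical axis, percent), with SETD8 libraries on the left. TEAD4 takes 45.8% to 50.9% of every bar, and the TEAD1 segment is largest in Vector replicate 3, at 28.0%.

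VGLL4, the competitor of YAP for TEAD binding, did not pass. It lies on chromosome 3 from 11556070 to 11771350 (ENSG00000144560, minus strand). SETD8 replicates 1, 2 and 3 had 43.1, 48.1 and 41.1 CPM, and Vector replicates 1, 2 and 3 had 43.4, 39.9 and 43.6 CPM. The groups overlapped, with SETD8 replicate 2 the highest of the 6. The log2 difference was 0.06 (SE 0.10), with a 95% interval of -0.16 to 0.28 and an edgeR adjusted p of 0.735, and it was -0.0038 without SETD8 replicate 2. Per kilobase, VGLL4 stood at 0.208 to 0.255 of the sum of YAP1 and WWTR1 in SETD8 libraries and at 0.201 to 0.226 in Vector libraries. VGLL4 shares 1596 exon bases with ATG7, an autophagy gene on the opposite strand that had 651 to 704 reads in SETD8 libraries and 687 to 746 in Vector libraries. This overlap makes the VGLL4 value the least certain of the 7, since 22.5% of its 50-base stretches occur in transcripts of other genes.

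The same search found 8.74% of such stretches for YAP1 and 8.98% for WWTR1. For YAP1 most lie in an antisense gene, ENSG00000254422, which had 0 reads in each library, and the rest in the processed pseudogene YAP1P1, with 0 or 1 read. For WWTR1 most lie in WWTR1-AS1, on the opposite strand, which had 6 to 19 reads in SETD8 libraries and 7 to 10 in Vector libraries, beside WWTR1 itself with 1004 to 1084 reads in SETD8 libraries and 1249 to 1495 in Vector libraries. Of the rest, 55 occur in THRAP3, which lies elsewhere and had 5768 to 6679 reads in SETD8 libraries and 6745 to 7787 in Vector libraries (log2 fold change -0.25, edgeR adjusted p = 0.0959), so a few reads of WWTR1 are uncertain. The remainder lie in TEP1, MTSS1 and CEBPZOS, with 3 or 4 stretches each.

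By mean level per kilobase of exon, the core genes stood in the same order in both groups, TEAD4, YAP1, TEAD1, WWTR1, TEAD2, TEAD3 and VGLL4. In SETD8 libraries TEAD4 averaged 21.8 ± 1.29 CPM per kilobase, YAP1 19.4 ± 0.695, TEAD1 9.44 ± 0.317 and WWTR1 6.72 ± 0.673 (SD, n = 3). TEAD2, TEAD3 and VGLL4 followed with means of 6.51, 6.46 and 6.10. Each of the first 3 genes lay clear of the next, while WWTR1, TEAD2, TEAD3 and VGLL4 each overlapped the next in the order. In Vector libraries TEAD4 averaged 21.4 ± 0.228 CPM per kilobase, YAP1 18.4 ± 1.48, TEAD1 10.9 ± 1.58 and WWTR1 8.83 ± 1.22 (SD, n = 3), and TEAD2, TEAD3 and VGLL4 averaged 6.83, 6.13 and 5.84. There TEAD1 overlapped WWTR1, WWTR1 did not overlap TEAD2, and TEAD2, TEAD3 and VGLL4 overlapped in turn. WWTR1 thus overlapped TEAD2 in SETD8 libraries only, a description with no test. The order depends on the length used: divided by the longest transcript, VGLL4 averaged 11.8 CPM per kilobase in SETD8 libraries, above WWTR1 with 11.2, and 11.4 in Vector libraries, below WWTR1 with 14.8. TEAD1 then lay between VGLL4 and WWTR1 in both groups, at 11.4 in SETD8 libraries and 13.3 in Vector libraries. By that length the groups did not share the same order.

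Within groups, the core genes were uneven in how much they varied. The SD of log2 CPM in SETD8 libraries was 0.05 for YAP1, TEAD1 and TEAD2, 0.09 for TEAD4, 0.12 for VGLL4, 0.14 for WWTR1 and 0.19 for TEAD3, against a median of 0.12 over all tested genes. In Vector libraries it was 0.25 for TEAD2, 0.20 for TEAD1, 0.19 for WWTR1, 0.18 for TEAD3, 0.12 for YAP1, 0.07 for VGLL4 and 0.02 for TEAD4, against a median of 0.18. TEAD1 and WWTR1 were both highest in Vector replicate 3, the library farthest from the SETD8 group on principal component 1, where TEAD2 was at its lowest. Among the core genes TEAD1 was the one closest to WWTR1, with a root mean square difference of 0.12 between their log2 CPM over the 6 libraries after each gene's own mean was taken out. WWTR1 and YAP1 differed by 0.26 on that scale, and WWTR1 and TEAD3 by 0.34, the widest of the 21 pairs.

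By the same measure over 8903 protein-coding genes with a mean of at least 10 CPM, the genes most like WWTR1 were KIRREL1, an immunoglobulin-family adhesion molecule (0.031), ADGRG6, an adhesion receptor of the G protein-coupled kind (0.033), and MTRR, which encodes methionine synthase reductase (0.037), against a median of 0.27. KIRREL1, ADGRG6 and MTRR averaged 28.5, 31.3 and 47.7 CPM in SETD8 libraries and 37.9, 40.2 and 64.5 CPM in Vector libraries. Since likeness to WWTR1 over these libraries fixes the direction of such genes, no test is given for them. Most like YAP1 were the monocarboxylate transporter gene SLC16A1, the SUMO-activating enzyme gene UBA2 and AP3M2 (0.020, 0.021 and 0.023). Most like VGLL4 were SARAF, a regulator of calcium entry, the unconventional myosin gene MYO1D, and FBRSL1 (0.020, 0.025 and 0.029). Close matches over 6 libraries are a description only.

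The gene lists below were counted in several fits, and the share of all genes called differed widely among them. DESeq2 called 6.99% lower and 5.7% higher, here and below as shares of the 12976 genes to which it gave an adjusted p. Of all 14370 genes, limma-voom called 4.32% lower and 3.26% higher, and edgeR with length correction 5.5% and 4.08%. Without Vector replicate 1 the shares were 11.8% lower and 12% higher, without Vector replicate 2 they were 0.32% and 0.17%, and without Vector replicate 3 they were 4.38% and 3.06%. Without SETD8 replicate 1 they were 0.0679% lower and 0.00679% higher, without SETD8 replicate 2 they were 0.749% and 0.306%, and without SETD8 replicate 3 they were 0.568% and 0.305%. Counts of 0 in the last 3 fits and without Vector replicate 2 therefore stand beside a share of all genes under 1% in either direction.

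Other proteins bind TEAD factors, YAP or TAZ, or affect their work on DNA, and most of the genes listed for them did not pass. Of these 23 genes, 18 were tested, 2 fell and 0 rose with SETD8, beside 4.75% lower and 3.08% higher among all genes. The median log2 fold change was -0.19, against 0.00047 for all genes, and it was -0.055 without Vector replicate 3 and -0.043 with length correction. At an unadjusted p under 0.05, 6 were lower and 1 was higher, beside 13.8% and 12.3% of all genes. DESeq2 called 2 lower and 1 higher, and limma-voom 2 lower and 0 higher. ARID1A, a chromatin remodelling subunit, averaged 105 ± 6.49 CPM in SETD8 libraries and 140 ± 17.6 CPM in Vector libraries (SD, n = 3 each; log2 fold change -0.41, edgeR adjusted p = 0.0301). TP73, a p53 family member known to bind YAP, averaged 28.8 ± 4.08 CPM in SETD8 libraries and 40.0 ± 4.75 CPM in Vector libraries (-0.47, edgeR adjusted p = 0.0396). Without Vector replicate 1 the list had 7 lower and 1 higher (11.8% and 12% of all genes), without Vector replicate 3 it had 1 lower, with length correction 1 lower (ARID1A then had an edgeR adjusted p of 0.0520), and without Vector replicate 2 or any 1 SETD8 library 0 in either direction. VGLL1 and VGLL2, relatives of VGLL4, had at most 1 read in any library.

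Genes for the turnover and modification of YAP and TAZ were nearly all short of the threshold. This list holds the SCF ligase with its casein kinases, 14-3-3 proteins that retain YAP in the cytoplasm, deubiquitinases and tyrosine kinases. All 29 were tested, 0 fell and 1 rose, beside 4.75% lower and 3.08% higher among all genes. The median was -0.03, and it ran from -0.06 to -0.013 without single libraries and was 0.0026 with length correction. At an unadjusted p under 0.05, 6 were lower and 4 higher, beside 13.8% and 12.3% of all genes. DESeq2 called 3 lower and 3 higher, and limma-voom 0 lower and 1 higher. The gene that rose was GSK3A, of the GSK3 kinase family that is known to mark TAZ for degradation, with 78.2 ± 4.11 CPM in SETD8 libraries and 61.1 ± 3.95 CPM in Vector libraries (log2 fold change 0.35, SE 0.09, edgeR adjusted p = 0.0335). Without Vector replicate 1 the list had 7 lower and 3 higher (11.8% and 12% of all genes), without Vector replicate 3 it had 2 lower and 1 higher, with length correction 1 lower and 2 higher, and without Vector replicate 2 or any 1 SETD8 library it had 0 in either direction.

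Upstream of YAP and TAZ, 7 of 33 genes of the Hippo kinases and their scaffolds fell and 1 rose, beside 4.75% lower and 3.08% higher among all genes. The median log2 fold change was -0.16, and with length correction it was -0.06, with 5 lower and 1 higher. At an unadjusted p under 0.05, 11 were lower and 1 higher, beside 13.8% and 12.3% of all genes, and DESeq2 and limma-voom each called 7 lower and 1 higher. AMOTL1 and AMOTL2, angiomotin family members that bind YAP and TAZ outside the nucleus, had 75.6 ± 6.71 and 128 ± 6.95 CPM in SETD8 libraries and 109 ± 4.99 and 179 ± 10.7 CPM in Vector libraries (log2 fold change -0.53 and -0.48, edgeR adjusted p = 0.00815 and 0.00848). NF2, which encodes the upstream activator merlin, fell by 0.40 on the log2 scale (edgeR adjusted p = 0.0145). SAV1, the scaffold of the core kinases, was the 1 that rose (0.37, edgeR adjusted p = 0.0248). The genes of those kinases, STK3, STK4, LATS1 and LATS2, did not pass. Their log2 fold changes were 0.17, -0.21, -0.06 and -0.05 (edgeR adjusted p = 0.346, 0.195, 0.790 and 0.807). Without Vector replicate 1 the counts were 11 lower and 1 higher (11.8% and 12% of all genes), without SETD8 replicate 3 they were 2 and 0, and without Vector replicate 2 or SETD8 replicate 1 or 2 they were 0 and 0. The calls of AMOTL1, AMOTL2, NF2 and SAV1 were each lost without Vector replicate 2 and without SETD8 replicates 1 and 2.

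Downstream, 7 of 19 tested genes from a list of 22 YAP/TAZ targets fell and 0 rose, beside 4.75% lower and 3.08% higher among all genes, with a median log2 fold change of -0.42. At an unadjusted p under 0.05, 12 were lower and 0 higher, beside 13.8% and 12.3% of all genes. DESeq2 called 10 lower and limma-voom 6 lower, and each called 0 higher. AXL, a receptor tyrosine kinase gene, averaged 85.3 ± 9.10 CPM in SETD8 libraries and 146 ± 9.90 CPM in Vector libraries (SD, n = 3 each; log2 fold change -0.77, edgeR adjusted p = 0.00318) and kept its call without each library in turn (highest edgeR adjusted p = 0.0415). DOCK5, an activator of Rac, fell as well (-0.55, edgeR adjusted p = 0.0166), a call lost without Vector replicate 2 and without each SETD8 library (0.0704 to 0.0953). AMOTL2, LATS2 and PTPN14 stand in both this list and the one above. The number lower was 12 without Vector replicate 1 (11.8% of all genes) and 5 without Vector replicate 3. It was 1 without Vector replicate 2, SETD8 replicate 1 or SETD8 replicate 2, and 2 without SETD8 replicate 3. With length correction 7 were lower and 0 higher, beside 5.5% and 4.08% of all genes. The median was then -0.29, and it was -0.32 without Vector replicate 3. AXL had the lowest adjusted p of this list and does not stand for all targets. Its difference of -0.77 compares with the list's median of -0.42 and with -0.05 for LATS2 (edgeR adjusted p = 0.807). In the same libraries WWTR1 differed by -0.39 and YAP1 by 0.08.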

How the data were processed

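The authors deposited 1 table of raw, whole-number counts per Ensembl gene ID for 3 SETD8 and 3 Vector libraries. GRCh38 (hg38), HISAT2, STAR, HTSeq and featureCounts appear in the submitters' processing notes, and their roles and versions, the annotation used and whether strand was counted are not given in the labels or the file. Columns named NC were taken as the Vector group, the only group other than SETD8. All 58735 IDs matched GENCODE 29, which gave positions, exon lengths and transcripts.

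filterByExpr kept 14370 genes (44365 dropped), which held 99.9% of the counts. Groups were compared with edgeR 4.0.16 (limma 3.58.1, R 4.3.3) by the robust quasi-likelihood test with TMM scaling and Benjamini-Hochberg adjustment over all genes tested (threshold 0.05), two-sided, without covariates. SE is the size of the log2 fold change over the square root of F, and intervals use the test's degrees of freedom. The prior count for log CPM was 2. The script was tested on simulated data, where it recovered 76.0% of 1.5-fold changes, 98.4% of 2-fold changes and 100% of 4-fold changes. Of its calls there, 6.88% were false. Changes smaller than 1.5-fold were not simulated. DESeq2 1.42.0 and limma-voom were alternatives. Levels of different genes are compared per kilobase of exon union, with the longest transcript and, for TEAD shares, no division by length as alternatives. The log2 ratio of WWTR1 to YAP1 counts is compared between libraries, where length cancels. Members, gene lists and tests were chosen with earlier results of these data known. Genes named are the 7 members, KMT5A, overlapping genes, the 3 nearest by profile, and at most 3 called genes per list. Other list genes (SAV1, STK3, STK4, LATS1, LATS2, PTPN14, VGLL1, VGLL2, the cell type markers) were named after their values were seen. So were THRAP3, TEP1, MTSS1 and CEBPZOS, which share stretches with WWTR1. Figures used matplotlib 3.10.9.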

Additional observations from a re-analysis of the deposited data

How the results depend on the processing

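The direction of WWTR1, YAP1 and TEAD1 and of the ratio of WWTR1 to YAP1 held under every alternative run. For WWTR1 and the ratio this says little, since groups that do not overlap can hardly change direction when 1 library is left out. The replicate block leaves the mean difference of the ratio unchanged by construction. The WWTR1 call was lost with library totals (-0.36) and limma-voom (-0.39), which left 0 core genes called lower. Library totals called 3.51% of all genes lower, and limma-voom 4.32%. With 1 library left out, the WWTR1 log2 fold change was -0.48 to -0.27, with 0 to 2 core genes called lower and 0 higher. The 2 were called without Vector replicate 1, where 11.8% of all genes were lower and 12% higher. In the other fits without 1 library the count was 0, beside 0.0679% to 4.38% of all genes called lower. Without single libraries YAP1 stood at 0.030 to 0.14, TEAD1 at -0.30 to -0.094, TEAD2 at -0.19 to 0.057, TEAD3 at -0.040 to 0.20 and VGLL4 at -0.0038 to 0.11, so the last 3 changed sign, as TEAD4 did with length correction (-0.12); the cause was not tested. Counts over all genes ran from 10 lower and 1 higher without SETD8 replicate 1 to 1738 lower and 1771 higher without Vector replicate 1, and the cause was not tested. They were 792 higher with library totals, 1051 lower and 949 higher with no low-count filter, and 739 higher with DESeq2.

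Without division by length, TEAD1, TEAD2, TEAD3 and TEAD4 took 52.3%, 10.4%, 10.6% and 26.7% of TEAD reads in SETD8 libraries and 56.0%, 10.2%, 9.37% and 24.4% in Vector libraries. By the longest transcript, TEAD3 took 11.9% in SETD8 and 11.0% in Vector libraries, and TEAD4 53.0% in SETD8 and 50.8% in Vector libraries. With 1 library left out, the TEAD4 share was 48.5% to 50.3% in SETD8 libraries and 46.6% to 48.0% in Vector libraries. The TEAD1 share was then 20.7% to 22.0% in SETD8 libraries and 22.2% to 25.3% in Vector libraries.

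No shared effect of the replicate number was seen. Deviations of same-numbered libraries from their group means correlated at 0.02, 0.0078 and -0.06 across 14370 genes, and those of unlike number at -0.095 to 0.092. These values cannot show whether the libraries were handled in pairs. With the replicate block, WWTR1 stood at -0.39 (edgeR adjusted p = 0.0267), 645 genes were lower and 532 higher, and the exact paired p of the ratio was 0.25, the smallest that 3 pairs allow.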
